A study of Mus musculus and Mus musculus x Mus spretus with 8 samples.

Results

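The genes described here encode the nuclear subunits of the mitochondrial respiratory chain and of ATP synthase, measured in 8 single glomus cells of the mouse carotid body. They were chosen by symbol alone. The rule takes the Nduf subunits numbered in families a, b, c, s and v, Sdha to Sdhd, all Uqcr symbols, the Cox5 to Cox8 subunits and all Atp5 symbols, adds Cyc1 and Cycs, and leaves out Ndufa4. It finds 82 of the 24060 symbols of the table, namely 35 genes of complex I, 4 of complex II, 9 of complex III, 16 of complex IV, 15 of complex V and 3 outside these complexes. Those 3 are Cycs, which encodes the electron carrier cytochrome c, and Atp5s and Atp5sl, whose products are not ATP synthase subunits although their symbols match. The rule itself uses no measured value, although it was set with earlier results of these data known.

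The cells came from wild-type pups at postnatal day 4 to 5. Cell 2 carries the strain label C57BL/6 X SPRET/EiJ and the other 7 the label C57BL/6. Per the series' design text, they were picked as glomus cells positive for Th, Uchl1 and Kcnk3. No animal is named for any cell, so the 8 cells count as 1 sample, and all values below describe these cells with no test, no p-value and no standard error. The unit is the deposited RPM, the share of a cell's counted reads scaled to 1000000, with totals of 3960200 (cell 1) to 30218206 (cell 2) reads. Detection means a value of at least 1 RPM in that cell. Reading no read at all allows up to 3 reads, which is 0.0993 RPM in cell 2 and 0.758 RPM in cell 1, and this limit covers counting error only, because PCR copies of a molecule cannot be told apart.

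The label was set against markers of the cell type, and it held less evenly in cell 4 than in the other cells. All 12 glomus cell markers were detected in at least 6 cells, at a summed 18235 to 33302 RPM, 3 of them being the selection genes. Of the 12, Slc18a2 had 0 reads in cell 7. Other cell types were represented by few of their markers. Of 6 glial genes none was detected in 6 cells (summed 0 to 154 RPM), with S100b, Gfap and Sox10 at 0 reads in every cell. Of 6 endothelial genes only Cldn5 was (0 to 2730 RPM), and the other 5 had 0 reads in every cell. No fibroblast gene (summed 0 to 184 RPM) and no mural or muscle gene (summed 0 to 355 RPM) was detected in 6 cells. Single cells did hold some of them. Pdgfrb was at 350, 72.2 and 94.2 RPM in cells 3, 5 and 7, and Col3a1 at 184 RPM in cell 6. The 6 blood and immune genes had 0 reads throughout. Of 5 sympathetic or chromaffin genes Npy and Stmn2 were detected in at least 6 cells. Dbh reached 2588 RPM in cell 4 and 33.2 RPM in cell 8 and 0 elsewhere. Cell 4 also stood apart by 0.202 RPM of Olfr78, 170 RPM of Epas1, 42.5 RPM of Rgs5 and 153 RPM of Chgb. Every other cell had at least 1203, 5590, 672 and 1325 RPM of these. It was highest in Stmn2 (5111 RPM, others at most 2220 RPM) and alone above 1 RPM in Prph (223 RPM). Among glomus markers, Uchl1 and Snap25 were also highest in cell 4. Th, Kcnk3, Ddc, Chga, Slc18a2 and Cyb561 lay within the range of the other cells there. The part of these differences in the values below was not tested.

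In the inner mitochondrial membrane, complex I takes electrons from NADH and complex II from succinate, and both pass them through coenzyme Q to complex III. Cytochrome c carries them on to complex IV, which reduces oxygen, and complex V makes ATP from the proton gradient that complexes I, III and IV build. Complex II is encoded wholly in the nucleus, while the others also need subunits made from mitochondrial DNA, for which the table lists no symbol beginning with mt-. Oxygen sensing in glomus cells has long been linked to their mitochondria, since blockers of the chain excite these cells.

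Many of these genes have processed pseudogenes, intronless copies of their mRNA elsewhere in the genome, so some of these genes and their copies are shown first. The first set pairs coding stretches of genes with low levels with their closest copies. Letters are lower case, and a capital marks a base at which gene and copy differ.

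Ndufs5: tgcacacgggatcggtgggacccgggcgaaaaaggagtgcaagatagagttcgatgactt

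BC002163: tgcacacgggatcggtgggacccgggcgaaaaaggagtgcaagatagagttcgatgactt

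Cox5b: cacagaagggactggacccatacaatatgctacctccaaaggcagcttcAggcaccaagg

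Gm11273: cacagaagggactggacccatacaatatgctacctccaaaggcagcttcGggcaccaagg

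The Ndufs5 stretch lies in 1 exon at chr4:123715892-123715951, minus strand of GRCm38, and is bases 129 to 188 of the coding sequence. The copy, BC002163, is a processed pseudogene at chr16:42955631-42955949, and the 60 bases are the same in both. The Cox5b stretch covers bases 164 to 223 of its coding sequence and joins 2 exons on chromosome 1. Its copy Gm11273 on chromosome 13, which is annotated as protein-coding and not as a pseudogene, differs from it at 1 of 60 bases. The second set shows a contrasting case, the last 90 coding bases of the 3 genes of the c subunit, the proton-carrying ring of ATP synthase. All 3 stretches translate to the same residues, and capitals mark bases that differ from Atp5g3.

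Atp5g1: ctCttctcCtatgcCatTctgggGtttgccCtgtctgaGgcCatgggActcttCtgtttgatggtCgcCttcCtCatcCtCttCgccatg

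Atp5g2: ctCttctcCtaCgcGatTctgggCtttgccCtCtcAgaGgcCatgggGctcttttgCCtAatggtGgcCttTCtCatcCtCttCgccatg

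Atp5g3: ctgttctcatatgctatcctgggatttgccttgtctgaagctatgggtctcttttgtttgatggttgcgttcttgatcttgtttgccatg

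Atp5g1 (chr11:96073107-96073196, minus strand) differs from Atp5g3 (chr2:73908596-73908685, minus strand) at 17 of the 90 bases, and Atp5g2 (chr15:102663017-102663106, minus strand) at 23. The longest run that Atp5g3 shares with either in this stretch is 11 bases, so the stretches differ as letters although they translate alike.

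The subunit genes were widely detected. Of the 82 genes 61, or 74.4%, were detected in at least 6 cells, against 14.2% of all symbols, and 42 in all 8 cells, against 4.88% of all symbols. Of the rest, 14 reached this level in 1 to 5 cells and 7 nowhere. The median gene of the 82 had a median level of 37.0 RPM, where the median over all symbols is 0.

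**Figure D1:**
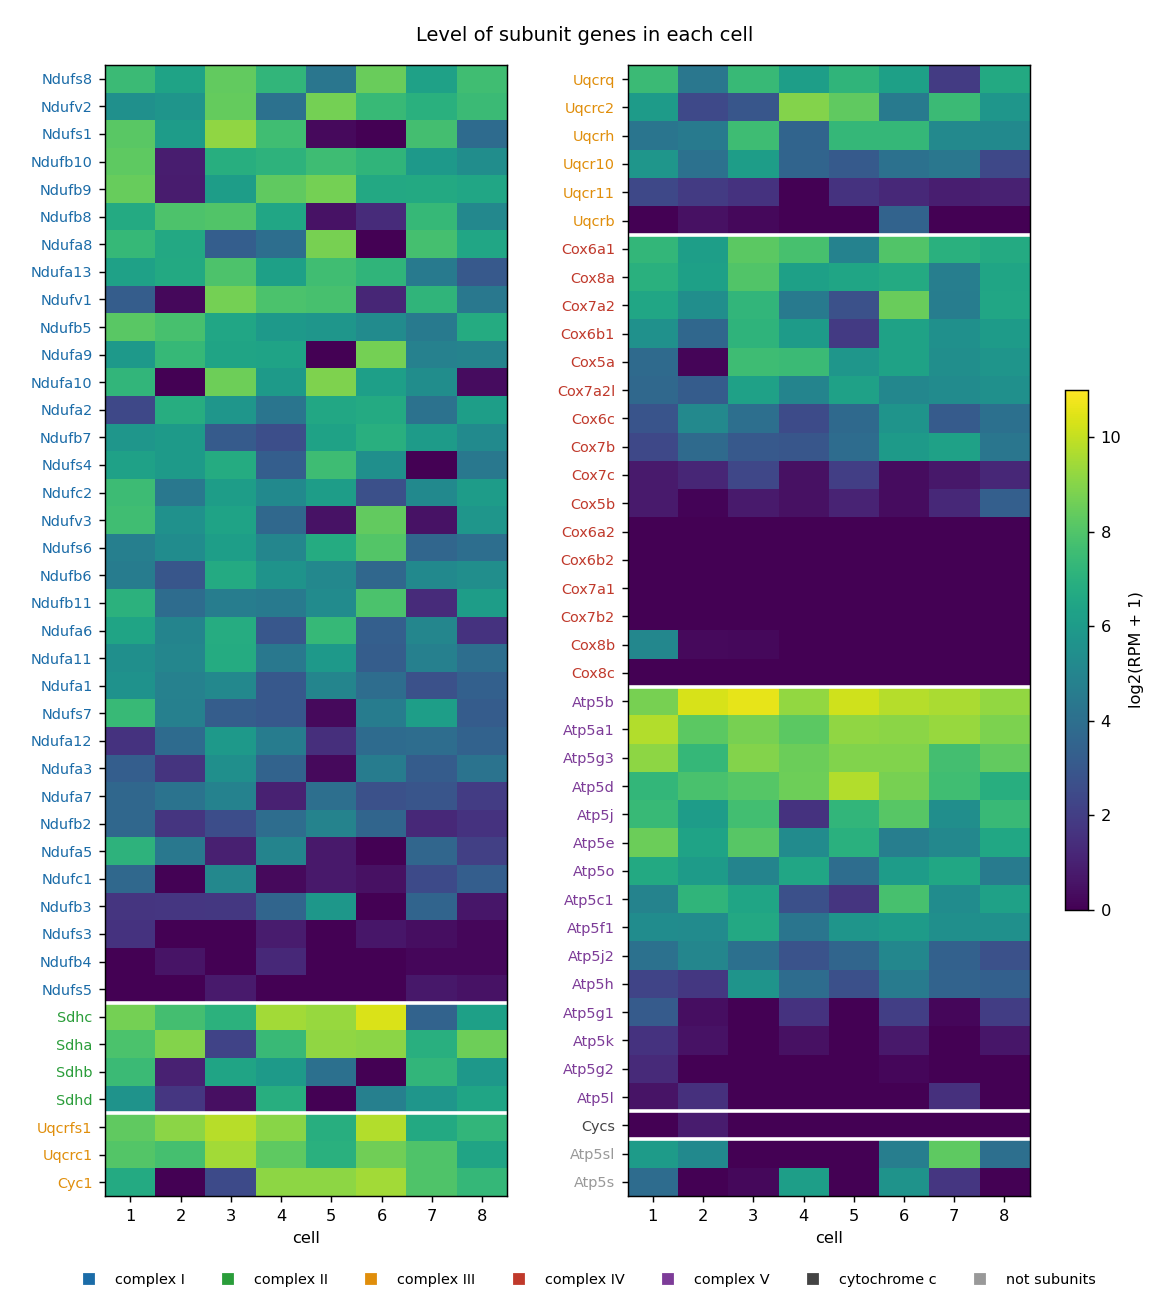
Heat map of log2(RPM + 1) for the genes shown (rows, symbols coloured by complex, ordered by median RPM within each complex) in the 8 cells (columns). Atp5b, Atp5a1 and Atp5g3 are high in every cell, and the muscle and testis forms of complex IV subunits are dark except Cox8b in cell 1.

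Together the 82 genes took 0.496% (cell 8) to 1.10% (cell 6) of a cell's reads, a median of 0.811% with an SD of 0.240, and a ratio of 2.21 between the extremes. Summed levels were 8538, 5898, 10859, 7690, 9752, 10990, 5535 and 4963 RPM in cells 1 to 8. Cells 3 and 6 were highest and cells 2, 7 and 8 lowest. Cell 4 lay inside the range of the others in this sum. Complex V supplied the largest median share, 33.6% of the summed RPM (23.8% to 40.9%), followed by complex I with 28.4% (24.3% to 39.4%), complex III with 14.8% (11.8% to 25.5%), complex II with 12.1% (2.06% to 17.4%) and complex IV with 7.42% (2.92% to 10.6%). The lowest complex V share and the highest complex III share were both in cell 4. Without that cell these ends were 28.0% and 20.3%, both in cell 6. The shares of all complexes depend on how many genes each has.

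Complex V was the steadiest. Its catalytic F1 head was detected in full, with all 5 genes in 8 of 8 cells and a summed 1322 to 2715 RPM. Atp5b, the catalytic beta subunit (chr10:128083273-128090391, plus strand of GRCm38), had 428, 1294, 1529, 601, 1176, 888, 775 and 602 RPM in cells 1 to 8, the highest median of all 82 genes at 831 RPM. Atp5a1, the alpha subunit, ranged from 298 to 842 RPM with a median of 504, a ratio of 2.83 between the highest and the lowest cell. Its SD of 0.52 on the log2(RPM + 1) scale was the smallest among the 61 genes detected in at least 6 cells. Atp5d, the delta subunit of the rotor stalk, had a median of 248 RPM (117.97 to 843). Atp5e, the small epsilon subunit, had a median of 87.3 RPM (25.4 to 368). The gamma subunit gene Atp5c1, the central shaft, was the most uneven of the 5, with 29.5, 146, 87.9, 5.46, 2.23, 224, 40.2 and 78.4 RPM in cells 1 to 8, and cells 4 and 5 were lowest. The coding sequence of Atp5c1 has near-identical copies over 72.0% of its length.

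The membrane part and side stalk of ATP synthase (Fo) was more uneven between genes. Atp5g3 was at 556, 159, 493, 374, 476, 489, 210 and 322 RPM in cells 1 to 8, and per kilobase of transcript it was the highest of the 82 genes, at a median of 587 RPM per kb. Its relatives Atp5g1 and Atp5g2, which encode the same mature protein, reached at most 7.83 and 1.52 RPM. Atp5g3 thus made up a median of 99.9% of the RPM per kb of the 3 genes, with a lowest value of 99.5% in any cell. Atp5g1 and Atp5g2 have copies over 100% of their coding sequence while Atp5g3 has none, and how far this sets the share was not tested. Of the side stalk, Atp5j (coupling factor 6) had a median of 159 RPM, Atp5o (the OSCP subunit) 65.1 RPM, Atp5f1 (subunit b) 44.4 RPM and Atp5h (subunit d) 9.88 RPM, all detected in 8 cells. Atp5h ranged from 2.48 RPM in cell 2 to 51.2 RPM in cell 3. Atp5j2 (subunit f) had 13.2 RPM (5.66 to 32.8). Atp5k (subunit e) and Atp5l (subunit g), which lie where ATP synthase dimers meet, did not pass 2.02 RPM in any cell. Within each cell the mean log2(RPM per kb + 1) of the F1 genes exceeded that of the Fo genes, by a median of 3.50 (SD 0.33, range 3.13 to 4.04), but the difference was 1.34 without the genes whose coding sequence is copied over at least 50%.

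Promoter windows were available for 66 of the 82 genes, as 71 windows of 300 bases from RefSeq on GRCm38.p6, each around a transcript start and mostly before it. Motifs of 4 factors known to act on respiratory genes were searched on both strands, each counted separately where matches overlap. The NRF1 motif, GCGCA and GCGC with any 1 base between them, was in 18 windows or 25.4%, against 4.60% of all 32851 windows and 12.4% of 3454 windows of genes detected in at least 6 cells. CCGGAAG, the core bound by GABPA and other ETS factors, was in 16 windows or 22.5%, against 8.86% of all and 18.9% of those of genes in at least 6 cells. AAGATGGCG, bound by YY1, was in 7 windows or 9.86%, against 1.40% and 3.27%, and TCAAGGTCA, bound by ESRRA, in 2 windows or 2.82%, against 0.423% and 0.318%. Of 2 general promoter motifs searched the same way, the SP1 motif GGGCGG was in 28 windows or 39.4%, against 35.7% of all windows and 66.2% of those of genes in at least 6 cells, so it was less frequent than in the latter. The TATA box motif TATAAA was in 8 windows or 11.3%, against 13.6% and 6.51%. The shares are descriptions, and a match is not a bound site. The windows of 3 genes with high levels per kilobase are printed with matches to the first 4 motifs in capitals.

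Atp5g3: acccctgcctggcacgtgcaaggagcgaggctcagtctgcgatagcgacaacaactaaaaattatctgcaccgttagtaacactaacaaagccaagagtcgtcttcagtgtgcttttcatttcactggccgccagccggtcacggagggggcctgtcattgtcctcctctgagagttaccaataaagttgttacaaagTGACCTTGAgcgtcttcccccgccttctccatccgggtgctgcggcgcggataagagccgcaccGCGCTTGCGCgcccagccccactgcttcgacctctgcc

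Cox6a1: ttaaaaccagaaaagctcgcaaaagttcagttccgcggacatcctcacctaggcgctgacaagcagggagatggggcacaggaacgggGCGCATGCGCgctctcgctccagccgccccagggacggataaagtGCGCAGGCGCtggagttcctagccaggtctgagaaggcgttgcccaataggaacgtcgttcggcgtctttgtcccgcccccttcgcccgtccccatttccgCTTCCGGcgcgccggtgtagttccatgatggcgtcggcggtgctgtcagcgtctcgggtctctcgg

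Atp5b: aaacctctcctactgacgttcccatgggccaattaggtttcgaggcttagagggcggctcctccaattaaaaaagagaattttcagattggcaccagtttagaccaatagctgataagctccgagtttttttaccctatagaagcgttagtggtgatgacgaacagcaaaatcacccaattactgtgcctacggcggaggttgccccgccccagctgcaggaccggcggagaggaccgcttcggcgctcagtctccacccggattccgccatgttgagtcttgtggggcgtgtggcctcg

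The Atp5g3 window (chr2:73911277-73911576, minus strand) held an ESRRA and an NRF1 match, and the Cox6a1 window (chr5:115348909-115349208, minus strand) held 2 NRF1 matches and 1 ETS match. The Atp5b window (chr10:128083057-128083356, plus strand) held none of those 4, although Atp5b had the highest RPM of the 82 genes. Of the 13 regulator genes listed, Gabpa (median 47.3 RPM, 7 cells) and Yy1 (53.5 RPM, 6 cells) were detected in at least 6 cells, a share near the 14.2% of all symbols. Nrf1 and Esrra, given here because their motifs were searched, were detected in 4 cells each, with the highest value of both in cell 4 (291 and 402 RPM). The next highest were 138 RPM in cell 6 for Nrf1 and 76.8 RPM in cell 3 for Esrra. Ppargc1a, the coactivator that drives mitochondrial biogenesis, is added with its values already known and reached 1 RPM in cell 7 alone (18.7 RPM).

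Complex III, which passes electrons from coenzyme Q to cytochrome c, had its highest median levels in Uqcrfs1, Uqcrc1 and Cyc1, also per kilobase. Uqcrfs1, the Rieske iron-sulfur protein, had 315, 539, 915, 521, 116, 848, 101 and 151 RPM in cells 1 to 8, with no cell below 100. Uqcrc1, a core protein, had a median of 259 RPM (85.3 to 721). The other core gene, Uqcrc2, was lower and more uneven, with a median of 59.4 RPM, 4.401 and 6.59 RPM in cells 2 and 3 and 490 RPM in cell 4. Cyc1, the cytochrome c1 that hands electrons to cytochrome c, had 106, 0, 4.52, 556, 553, 710, 249 and 159 RPM in cells 1 to 8. It was at 0 reads in cell 2, the deepest library, and near 0 in cell 3, while all other cells passed 100 RPM. Among small subunits, Uqcrq had a median of 87.8 RPM, Uqcrh, the hinge protein, 35.6 RPM, Uqcr10 16.4 RPM and Uqcr11 1.71 RPM. Uqcrb, which helps bind coenzyme Q, was detected in cell 6 alone, at 10.2 RPM. Uqcr11 and Uqcrb have 100% of their coding sequence copied elsewhere.

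Complex II, succinate dehydrogenase, was detected with all 4 genes in at least 6 cells but was the most uneven complex, with a median SD of 2.55 log2 units over its genes against 1.76 for complex I, 1.43 for complex III, 1.26 for complex IV and 0.90 for complex V, each over genes detected in at least 6 cells. Sdha, the flavoprotein that oxidises succinate, had 234, 502, 3.58, 173, 574, 538, 122 and 376 RPM in cells 1 to 8, so cell 3 was far below the rest. Sdhb, the iron-sulfur subunit, had 181, 0.993, 85.7, 62.1, 15.9, 0, 149 and 57.5 RPM. Sdhc, a membrane anchor, had 418, 210, 134, 707, 633, 1345, 10.48 and 74.6 RPM, with the lowest value in cell 7. Sdhd, the other anchor, had 49.5, 2.35, 0.377, 117.5, 0, 26.6, 53.3 and 87.6 RPM. The cells that were low differed from gene to gene, and no cell was low in all 4. None of the 4 coding sequences has a near-identical copy.

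Complex I, NADH dehydrogenase, had 30 of 35 genes in at least 6 cells and 16 in all 8. Its 7 nuclear core subunits carry the flavin and the iron-sulfur clusters and form the path of electrons. Of these Ndufs8 had 180, 82.2, 328, 150, 18.8, 353, 77.7 and 199 RPM in cells 1 to 8, and Ndufv2 a median of 147 RPM (15.98 to 421). Both were detected in every cell. Ndufs1, the largest subunit, had 289, 65.9, 578, 197, 0.223, 0, 209 and 13.4 RPM, and Ndufv1, which binds NADH, 8.59, 0.165, 412, 235, 224, 1.27, 147 and 20.3 RPM. Ndufs7, near the coenzyme Q site, had a median of 15.9 RPM and was lowest, at 0.223 RPM, in cell 5. Ndufs3 did not pass 2.02 RPM, and its coding sequence is copied over 100%. Among Ndufs1, Ndufs7, Ndufs8, Ndufv1 and Ndufv2, values under 1 RPM were in cell 2 (Ndufv1), cell 5 (Ndufs1 and Ndufs7) and cell 6 (Ndufs1).

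The 28 other subunits of complex I, which surround the core, included the highest gene of the complex per kilobase. This was Ndufb10, at a median of 175 RPM per kb, followed by Ndufs8 (164) and Ndufb9 (142). Ndufb10 had 307, 0.827, 118, 138, 189, 146, 60.9 and 41.1 RPM in cells 1 to 8, and Ndufb9 342, 0.761, 69.5, 316, 415, 98.9, 101 and 91.3 RPM. Both were under 1 RPM in cell 2 and above 40 RPM in all others. The lowest of the genes detected in at least 6 cells were Ndufb2 (median 7.98 RPM, 1.83 RPM per kb on a long annotated transcript of 4371 bases) and Ndufb3 (2.38 RPM). Ndufa5 was detected in 5 cells and was highest in cell 1 (137 RPM), and Ndufc1 in 4 cells, up to 34.1 RPM in cell 3. Ndufb4 and Ndufs5 reached at most 1.42 and 0.753 RPM. Ndufa8, Ndufa9, Ndufa10 and Ndufs4 had medians of 94.3, 72.5, 68.5 and 53.1 RPM, each with 0 reads in 1 cell. Among the remaining genes of the shell, Ndufb8 (97.3 RPM), Ndufa13 (89.5 RPM), Ndufb5 (74.9 RPM), Ndufa2 (62.7 RPM) and Ndufb7 (58.6 RPM) had the highest medians. Ndufc2, Ndufv3, Ndufs6, Ndufb6, Ndufa6, Ndufa11 and Ndufa1 followed, with medians between 51.6 and 21.1 RPM. Ndufa12 (13.4 RPM), Ndufa3 (9.58 RPM) and Ndufa7 (9.04 RPM) were lower. Of these, Ndufb8, Ndufv3 and Ndufa3 fell under 1 RPM in at least 1 cell, all 3 in cell 5, and the others were detected in all 8 cells. The mean log2(RPM per kb + 1) of the core genes minus that of the others had a median of 0.08 (SD 0.96, range -1.81 to 1.05) and was above 0 in 4 of 8 cells, a median smaller than its spread over the cells. It was lowest in cells 5 and 6.

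Complex IV, cytochrome c oxidase, is built with tissue-specific forms of several subunits, and the cells had reads for the common forms. Cox6a1 had 156, 71.9, 302, 221, 28.4, 261, 124 and 106 RPM in cells 1 to 8, while its heart and muscle form Cox6a2 had 0 reads in all 8. Cox8a had a median of 86.7 RPM (25.4 to 255). The muscle form Cox8b was detected in cell 1 alone, at 33.6 RPM, where it made up 29.1% of the RPM per kb of Cox8a, Cox8b and Cox8c. Cox7a2 had 89.6, 42.4, 152, 21.2, 5.59, 355, 24.2 and 89.96 RPM, while the muscle form Cox7a1 had 0 reads. Cox7a2l, which helps join complexes III and IV into supercomplexes, had 35.9 RPM (8.14 to 78.5). Cox7a2 made up a median of 77.0% of the RPM per kb of the Cox7a genes, but 11.1% in its lowest cell. Cox6b1 had a median of 55.1 RPM (2.68 to 141), and the testis forms Cox6b2, Cox7b2 and Cox8c had 0 reads in every cell. The X-linked Cox7b had 13.4 RPM (4.29 to 77.5) and Cox6c 13.8 RPM (4.65 to 51.3), both in 8 of 8 cells. Cox5a, next to the catalytic core, had a median of 53.2 RPM but 0.0993 RPM in cell 2. Its partner Cox5b reached 9.14 RPM in cell 8 and at most 1.39 RPM in the other cells, and Cox7c at most 4.14 RPM.

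The 5 complexes were then set side by side in each cell, as the mean of log2(RPM per kb + 1) over all their genes. Complex II was highest in 4 cells, complex III in 2, and complexes I and V in 1 each, and complex IV was lowest in 7 cells and complex II in cell 3. Complex II minus complex I had a median of 0.97 (SD 1.31, -2.07 to 2.07), complex III minus I 0.51 (SD 0.73, -0.11 to 2.06) and complex V minus I 0.34 (SD 0.54, -0.33 to 1.27). The first 2 were above 0 in 6 cells and the third in 5. Each of these medians is smaller than its spread over cells. This did not hold in every setting: without the genes whose coding sequence is copied, 8 of them in complex V, complex V minus I was 2.31 (SD 0.65) and complex III minus I 1.34 (SD 1.09). With genes detected in at least 6 cells only, complex V minus I was 1.36 (SD 0.58), whereas it was -0.077 with the length of all exons joined. With RPM not divided by length, complex II minus I was 1.84 (SD 1.36), but it was 0.42 (SD 1.36) with genes in at least 6 cells only. Without genes copied over at least 50% of the transcript, complex III minus I was 0.97 (SD 0.72). Complex IV minus I was -1.54 (SD 0.54) and below 0 in all 8 cells, but this rests on the muscle and testis forms that had almost no reads. Without those 6 genes it was 0.41 (SD 0.82).

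**Figure D2:**
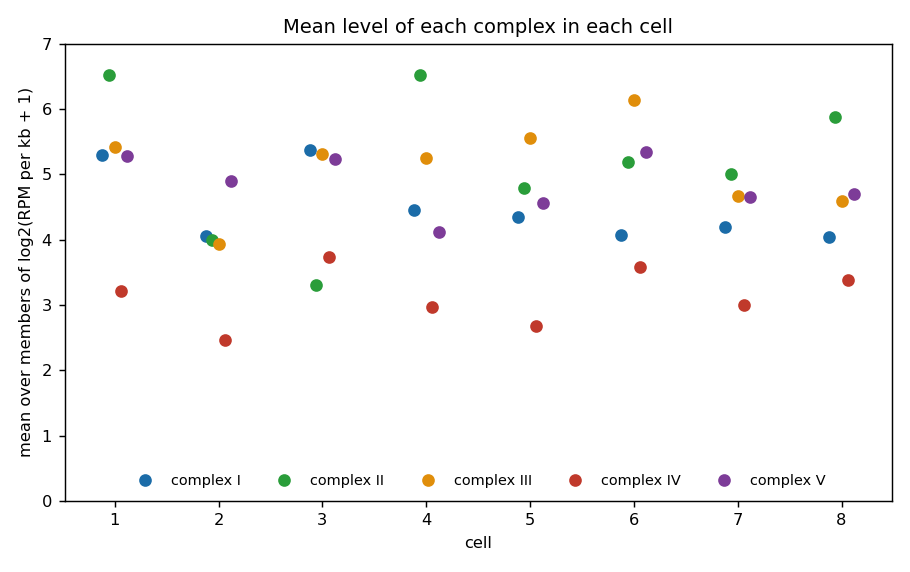
Mean over the genes of each complex of log2(RPM per kb + 1), with the 8 cells on the x axis and 1 point per complex and cell. Complex IV is lowest in 7 cells, and complex II runs from 3.31 in cell 3 to 6.53 in cell 4.

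Genes with copies made up 11 of the 21 genes detected in fewer than 6 cells. Copies were sought as alignments of at least 50 bases and 95% identity to annotated transcripts of other mouse genes. Genes that overlap the same locus were not counted. A gene without a copy can still share sequence with such a gene, over 42.0% of the transcript for Cox5a. By this measure 23 genes had copies over at least 50% of the coding sequence. Of these 23, 12 were detected in at least 6 cells. The median level over all 23 was 1.71 RPM, and the highest was 65.1 RPM for Atp5o. Among 52 genes with no copy, muscle and testis forms left out, 48 were detected in at least 6 cells. The median level over all 52 was 64.3 RPM. Of the 21 genes detected in fewer than 6 cells, 11 had such copies (Ndufs3, Ndufs5, Ndufb4, Uqcrb, Cox5b, Cox7c, Atp5g1, Atp5g2, Atp5k, Atp5l and Cycs), 6 were muscle or testis forms and 4 were neither (Ndufa5, Ndufc1, Atp5s and Atp5sl). Of the last pair, which are no subunits, Atp5s had a median of 1.25 RPM and reached 71.01 RPM in cell 4, and Atp5sl had a median of 20.2 RPM and reached 304 RPM in cell 7. Across the 76 genes other than muscle and testis forms, Spearman's rho of the copied percentage with the median RPM per kb was -0.61, a description over genes that share libraries. Cycs, cytochrome c itself, had 0 reads in 7 cells and 0.761 RPM in cell 2, with copies over 100% of the coding sequence in 4 other genes. Low values of the copied genes therefore cannot be read as low expression, because how the authors treated reads that match several places is not given in the sources used here. Atp5o (65.1 RPM) and Ndufb11 (31.3 RPM) have 100% copied and were detected in 8 cells. The part of the copies in these levels was not tested.

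**Figure D3:**
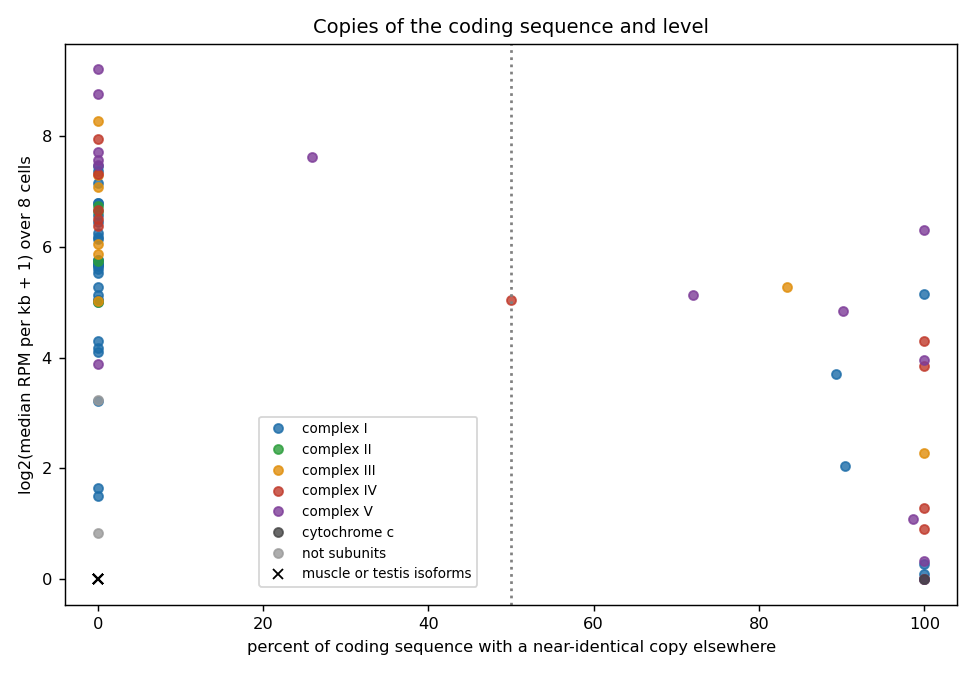
Each point is 1 of the 82 genes, with the percent of its coding sequence that has a near-identical copy on the x axis and log2(median RPM per kb + 1) over 8 cells on the y axis. The dotted line marks 50%. The 23 genes at or right of it have a median of 3.12 RPM per kb, against 61.4 for the 52 genes with no copy other than muscle and testis forms (crosses).

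The annotation held 48 copies, 44 of them pseudogenes, and 4 of the 48 have a symbol in the deposited table. BC002163, the Ndufs5 copy printed above and named after its values were seen, had 9.60, 0.0331, 32.8, 1.62, 5.14, 1.84, 20.8 and 25.7 RPM in cells 1 to 8. It was detected in 7 cells, whereas Ndufs5 itself had at most 0.753 RPM. The other 3 were Gm10012 and Gm12338, copies of Cox7c with at most 0.0331 RPM, and 4930481A15Rik, a copy of part of Uqcr10 with at most 4.52 RPM.

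The spread between cells was lower for these genes than for other detected genes. Over the 61 genes detected in at least 6 cells the median SD of log2(RPM + 1) was 1.58, against 2.77 over the 3422 symbols so detected, although the latter had a higher median level (91.01 against 59.8 RPM). The median SD was 1.46 for 31 genes with transcripts under 1000 bases, 1.65 for 23 from 1000 to under 2000 bases and 2.30 for 7 of 2000 bases or more. Symbols of the same length classes had 1.98, 2.59 and 2.85, in 168, 603 and 2490 symbols, so the median spread was larger in longer classes in both and lower in the respiratory genes in each class. Of 49 genes at 100 RPM or more in some cell, 10 (20.4%) had 0 reads in another, against 77.4% of the 6919 symbols that reach 100 RPM. They were Ndufs1, Ndufs4, Ndufa5, Ndufa8, Ndufa9, Ndufa10, Sdhb, Sdhd, Cyc1 and Atp5sl. The cells with 0 reads varied, from cell 2 for Ndufa10 and Cyc1 to cell 7 for Ndufs4.

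**Figure D4:**
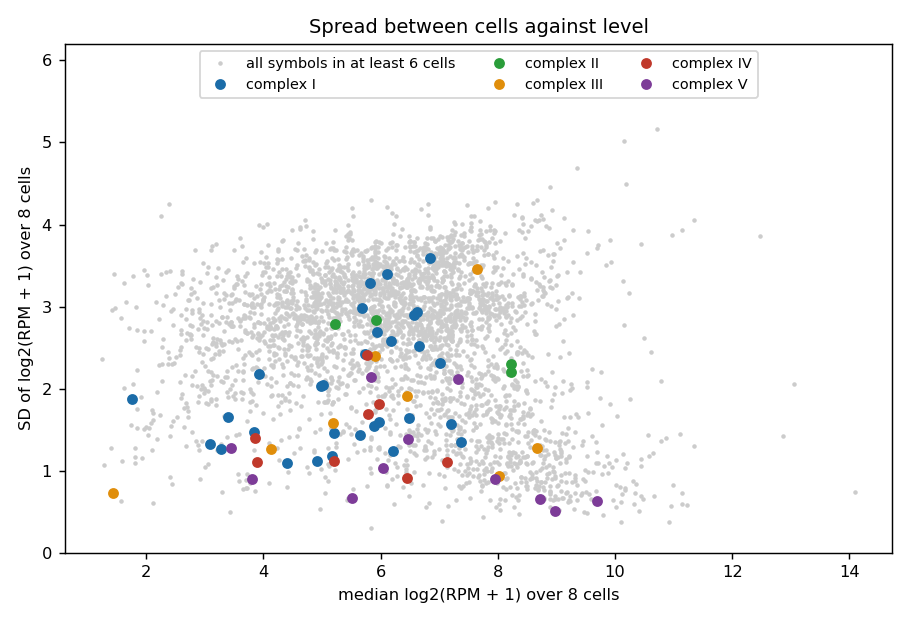
SD of log2(RPM + 1) over the 8 cells against the median of the same quantity, for every symbol detected in at least 6 cells (grey) and the genes of complexes I to V among them (coloured). Complex V genes have the lowest median SD of the 5 complexes, 0.90, and Ndufs1 and Cyc1 lie among the most variable with 3.59 and 3.46.

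The genes showed little shared variation between cells. Over 552 pairs of genes of the same complex the median Pearson correlation of log2 levels across the 8 cells was 0.07, with quartiles of -0.19 and 0.34. Over 1278 pairs of different complexes it was 0.08, and over all pairs of symbols in at least 6 cells 0.02 (quartiles -0.28 and 0.33). All pairs share the 8 libraries, their depths and their yields, and correlations of this size over 8 cells are weak.

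Cell 4, with its 0.202 RPM of Olfr78, was next set against the other cells in the standard subunits. Of the 67 genes detected in at least 4 cells, 1 lay below all other cells by more than 2 log2 units in cell 4 and 0 above, against 3.87% and 1.55% of all 5936 symbols detected in at least 4 cells. The gene was Atp5j, at 2.02 RPM against 42.5 to 281 RPM in the other 7 cells. At the same time the atypical subunit Ndufa4l2 had 2.23 RPM in cell 4 against 3393 RPM or more elsewhere, while Ndufa4 had 32.8 RPM there and 15.0 to 56.4 RPM elsewhere. Cox4i1, the common complex IV subunit outside the rule, had 489 RPM in cell 4, within the 127 to 1223 RPM of the others. Its atypical counterpart Cox4i2 had 0 reads in cell 4 and 147 to 1583 RPM in the other 7 cells.

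The other cells differed in which genes they lacked. Cell 2, the C57BL/6 X SPRET/EiJ cell, lay below the rest by more than 2 log2 units in 4 of the 67 genes (5.97%, against 1.62% of all symbols), namely Cox5a, Cyc1, Ndufb9 and Ndufb10, each under 1 RPM. The part of the strain in these values was not tested. Cell 7 did so in 4 genes as well (5.97%, against 1.16%), Ndufb11, Ndufs4, Sdhc and Uqcrq. Cell 5 did so in Ndufa9 and Ndufs7 (2.99%, against 4.46%), cell 3 in Sdha (background 1.92%) and cell 6 in Ndufa8 (background 3.69%). Cells 1 and 8 did so in none (backgrounds 0.354% and 0.59%). Above the others by that margin were Ndufa5 in cell 1 (background 0.91%), Ndufb3 in cell 5 (background 1.84%) and Atp5sl in cell 7 (background 0.96%). Cells 2, 3, 6 and 8 had none above, against 1.25%, 1.28%, 1.36% and 0.91% of all symbols. Of the 61 genes detected in at least 6 cells, cell 1 had all, and cells 2 and 5 had 7 and 8 under 1 RPM. Over all symbols, too, cell 1 had the most detected (6956) and cell 5 the fewest (4040), with 5604 in cell 2.

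Genes that build or serve the complexes were counted the same way, but near-identical copies were not sought for them. Of 40 assembly factors measured 8 were detected in at least 6 cells, a share near the 14.2% of all symbols, and 2 in all 8. Of the 21 that reached 100 RPM in some cell, 20 had 0 reads in another, against a lower share, 77.4%, of all symbols that reach 100 RPM. The 8 detected in at least 6 cells were, for complex I, Timmdc1 (median 87.1 RPM) and Ndufaf3 (36.9 RPM) of 13, for complex III Ttc19 (157 RPM) and Uqcc2 (33.5 RPM) of 5, and for complex IV Coa3 (77.4 RPM), Cox20 (20.8 RPM), Cox14 (7.23 RPM) and Cox17 (4.71 RPM), the copper chaperone, of 17. None of 2 complex II and 3 complex V factors was. Of 8 genes for the upkeep and transcription of mitochondrial DNA none was, and Tfam, which packs that DNA and is likewise added with its values known, was detected in 3 cells. Of 10 genes of coenzyme Q synthesis 1, Coq2 (13.2 RPM), was. Of 6 carriers and pores of the mitochondrial membranes 5 were, led by the adenine nucleotide carrier gene Slc25a4 (1453 RPM) and the phosphate carrier gene Slc25a3 (532 RPM), with Vdac2 (113 RPM) and Vdac1 (83.6 RPM) next.

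**Figure D5:**
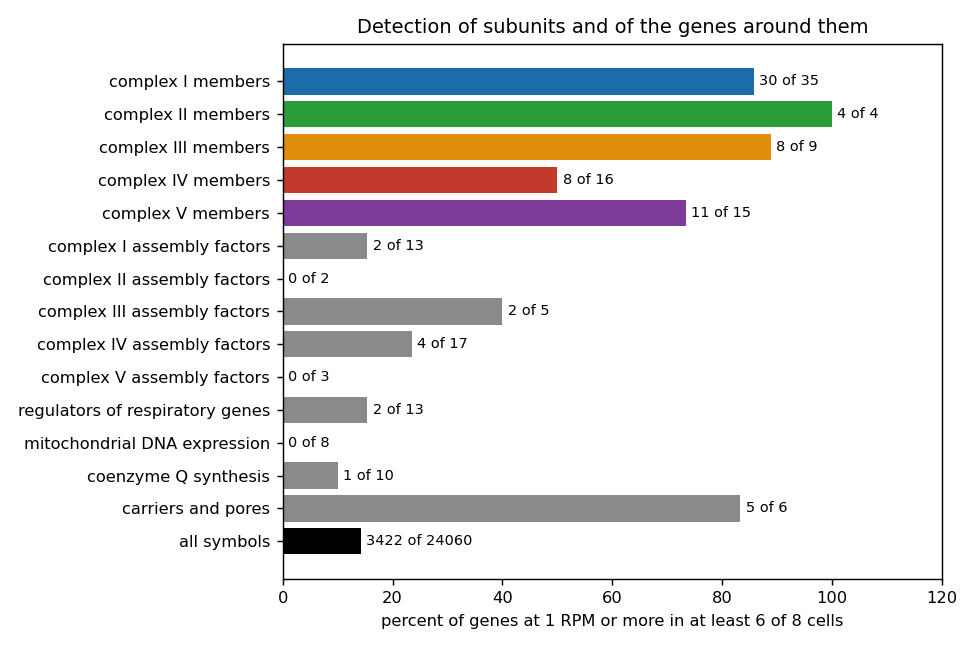
Percent of the genes of each list at 1 RPM or more in at least 6 of 8 cells, with the counts beside the bars. The 5 complexes (coloured) lie between 50% and 100%, the lists of assembly factors, regulators, mitochondrial DNA expression and coenzyme Q synthesis (grey) at 40% or below, carriers and pores (grey) at 5 of 6, and all symbols (black) at 14.2%.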

How the data were processed

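The deposited files hold, for each of the 8 cells, a raw read count and an RPM for 24060 gene symbols, per the file headers. The authors' RPM equals the count divided by the cell's total and scaled to 1000000, so it carries no correction for length. Reads were aligned with Bowtie to mm10, per the submitters' processing notes. Information on the read counter, the annotation and the treatment of multiply matching reads is not given in the sources used here. Cells were lysed singly and their cDNA amplified by PCR before libraries were made with Illumina kits, Nextera among them, per the labels' protocols. The RPM were used as deposited and log2 levels are log2(RPM + 1). For comparisons between genes RPM was divided by the length of the longest coding transcript in GENCODE M21, which is on the same build and held all 82 genes, Atp5sl under its newer symbol Dmac2. Such levels understate genes whose longest annotated transcript is much longer than the usual one, and the coverage along transcripts is unknown. Near-identical copies were sought for the 82 genes only, with blastn 2.17.0 (word size 16) among annotated transcripts. Copies outside the annotation are therefore missed. Counts and sums cover all 82 genes, and 1 gene is not reported here. The cells count as 1 sample, so conditions or sets of genes were not tested, and Dixon's limit was used over the cells only to mark values for a closer look. The genes, complexes and lists were chosen with earlier results of these data known. Named in detail are, in each complex, the 3 highest and 2 lowest genes per kilobase among those in at least 6 cells, all genes in fewer than 6 cells, isoform families and genes in which cell 4 lies outside the others by more than 2 log2 units, and of other lists the 4 highest genes in at least 6 cells; further genes of the set are named where a cell lacks them. The margin count was tried on simulated data that held counting noise only. That run therefore gives no error rate for cells that vary as these do. Alternatives covered length, pseudocount, detection limit, copied genes and leaving out cell 4 or cell 2. Calculations used Python 3.11.15, pandas 2.3.3 and scipy 1.17.1.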

Additional observations from a re-analysis of the deposited data

Results flagged for a closer look

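Of 73 values over the 8 cells that were checked, 5 held a cell whose gap to the nearest other cell was, as a share of the whole range, above the 95% limit of Dixon's test for 8 values, and chance alone gives about 1 in 20. All 5 are low values of single genes on the log2(RPM + 1) scale. Sdha was at 2.19 in cell 3, with the next cell at 6.94. Ndufb9 and Ndufb10 were at 0.82 and 0.87 in cell 2, with the next cells at 6.14 and 5.39. Atp5j was at 1.60 in cell 4, with the next cell at 5.44, and Ndufa9 at 0 in cell 5, with the next cell at 4.81. No summed level of a complex and no difference between sets of genes was so marked.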

How the results depend on the processing

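Of 72 values recomputed under an alternative, 53 moved by less than the spread over cells or, for counts, by less than 1.5 times. Complex IV minus complex I changed sign with genes detected in at least 6 cells only (0.86) and, in an alternative chosen after seeing the data, without the muscle and testis forms (0.41), and was -2.34 with a pseudocount of 0.1. Complex V minus I changed sign with the length of all exons joined (-0.077), and was 1.36 with genes in at least 6 cells only, 0.99 without genes copied over at least 50% of the transcript and 2.31 without those copied over at least 50% of the coding sequence, the last chosen after seeing the data. The latter choice put complex III minus I at 1.34. Complex II minus I kept its direction, at 1.84 with no length and 0.42 with genes in at least 6 cells only. The core of complex I minus its other subunits was 0.66 with no length, 0.80 without genes copied in the transcript, -0.0026 with all exons joined and -0.065 to 0.22 with cell 4 or cell 2 left out. F1 minus Fo kept its direction but was 4.06 with no length, 4.44 with a pseudocount of 0.1, 1.52 with genes in at least 6 cells only and 1.34 without coding copies. The median level of the 82 genes was 51.6 and 59.8 RPM without genes copied in the transcript or in the coding sequence. The genes outside the other 7 cells in cell 4 numbered 4 with a margin of 1 log2 unit and 2 with a pseudocount of 0.1. The Atp5g3 share was 99.6% with no length. No paired analysis was possible because the labels give 1 group. With 8 cells of unknown animal, neither the spread between animals nor differences between strains can be separated.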

Other observations

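The rule passes over several genes whose products sit in or beside the complexes, and the values of some of them follow. Ndufab1 did not pass 0.607 RPM in any cell. Atpif1, the inhibitor of ATP synthase, had a median of 77.5 RPM, from 2.65 RPM in cell 2 to 167 RPM in cell 3. Higd2a, an assembly and supercomplex factor, had a median of 42.3 RPM (1.55 to 133). Usmg5, a small ATP synthase subunit, did not pass 3.28 RPM in any cell. Vdac3, a pore of the outer membrane, reached at most 3.58 RPM, against medians of 83.6 RPM for Vdac1 and 113 RPM for Vdac2. Copies were sought for the 82 genes only, so the low values of Ndufab1, Usmg5 and Vdac3 cannot be read as low expression. Of the genes named here, Ndufab1, Usmg5, Vdac3 and Higd2a were chosen after their values were seen. Among assembly factors with high peaks, also named after their values were seen, Sdhaf2 reached 693 RPM in cell 2, with 139 RPM in cell 1 next. Cox19 reached 592 RPM in cell 6, with 22.2 RPM in cell 1 next. Coa5 reached 727 RPM in cell 4 but also 613 RPM in cell 6 and 580 RPM in cell 3. Each of these factors had 0 reads in at least 1 cell.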
